A study of Homo sapiens with 8 samples.

Results

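The ATR-CHK1 replication stress checkpoint was followed through 10 genes, ATR, ATRIP, CHEK1, CLSPN, RAD9A, RAD1, HUS1, TOPBP1, WEE1 and CDC25A, which were taken by symbol from the 19952 symbols measured in every library. All 10 were listed in each of the 8 libraries and passed the filter on low values in both cell lines. RNA was sequenced from a pair of human uveal melanoma lines in which the cytidine deaminase APOBEC3B (A3B) was changed in opposite directions. The 92.1 groups were shA3B, cells with a hairpin that lowers A3B, and shCtrl, cells that carried an empty vector according to the methods of the study. The MEL290 groups were A3B OE, cells given extra A3B from a vector, and NC, a negative control whose vector the labels do not name. The constructs were delivered with lentivirus and the cells were selected with puromycin, and more than 1 hairpin against A3B is described without saying which was sequenced. Each of the 4 groups had 2 libraries, and nothing states that they came from separate cultures, so the tests measure the spread between these libraries, which may be technical.

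Replication forks that stall expose single-stranded DNA coated with the RPA complex, and ATR, a kinase of the PI3K-like family, is brought to it by its partner ATRIP. ATR is switched on by TOPBP1, which is held at the fork by the ring-shaped clamp of RAD9A, RAD1 and HUS1. Active ATR phosphorylates the kinase CHK1, encoded by CHEK1, with claspin, encoded by CLSPN, as the adaptor. CHK1 then slows entry into mitosis and late origin firing by driving the destruction of the phosphatase CDC25A, which activates cyclin-dependent kinases (CDKs), while WEE1 places the inhibitory phosphate that CDC25 phosphatases remove. Most of this pathway is run by phosphorylation and protein turnover, neither of which is seen in RNA, so the values here are messenger RNA levels of the components.

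Several of these genes are known to be transcribed around S phase by E2F factors, and short E2F words near the start were looked for in the RefSeq promoter windows (GRCh38.p14, 250 bases before to 50 after the start). Of the 10 genes 8 had a window, and WEE1 and HUS1 had none. The words TTTGGCGC, TTTCCCGC, TTTGCCGC and TTTCGCGC, read on both strands, lay in the windows of 3 of the 8 genes, against 5.5% of the 15085 genes of the files that have a window. The stretches around them are shown for CLSPN, which was called higher with A3B in MEL290, and for TOPBP1 and CDC25A, which were not called. No test compared these genes with each other. TOPBP1 rose too, by a log2 fold change of 0.40 (95% interval 0.07 to 0.73, limma). They are written 5′ to 3′ along the gene, with the word in capitals.
CLSPN, chr1:35769976-35770023, minus strand: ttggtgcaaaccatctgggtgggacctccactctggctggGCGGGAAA
TOPBP1, chr3:133661941-133661988, minus strand: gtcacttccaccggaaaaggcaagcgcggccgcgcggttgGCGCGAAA
CDC25A, chr3:48188418-48188501, minus strand: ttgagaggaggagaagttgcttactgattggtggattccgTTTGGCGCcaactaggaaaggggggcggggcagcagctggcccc
In CLSPN and TOPBP1 the word is the reverse complement of a listed one, and in CDC25A it stands as listed. The general promoter word CCAAT was in the windows of 5 of the 8 genes (ATRIP, CHEK1, CLSPN, RAD9A and CDC25A), against 42.5% of genes with a window. A match of letters is a description and does not show that a factor binds.

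The values were FPKM, that is, fragments scaled to transcript length and to library size, so levels can be set side by side between genes, with the reservation that reads shared by overlapping genes may be divided between them. A rough depth read from the low FPKM values lay between 17200000 and 31300000 fragments per library, which gives from 194 fragments for RAD9A in an NC library to 5197 for TOPBP1 in an shA3B library. The targeted gene followed the labels in all 8 libraries. APOBEC3B was at 35.9 and 32.3 FPKM in shCtrl and 1.98 and 2.37 FPKM in shA3B cells, and at 2.67 and 2.19 FPKM in NC and 28.4 and 27.5 FPKM in A3B OE cells. The 7 melanocyte markers summed to between 7110 and 8710 FPKM in 92.1, but to between 15.2 and 20.7 FPKM in MEL290, where MITF held most of the sum and TYR was listed at 0 in all 4 libraries, so the MEL290 libraries did not show the pigment-cell markers that their label leads to. Of the 5 leukocyte markers CD3E was at 0 in every library, CD68 was at 14.5 to 35 FPKM, and the sum without CD68 stayed at or under 0.78 FPKM. The 6 fibroblast markers without COL1A1 summed to at most 5.75 FPKM in 92.1 and 0.731 FPKM in MEL290, while COL1A1 itself reached 40.7 FPKM in an A3B OE library.

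A3B overexpression in MEL290 went with higher messenger RNA of WEE1, CLSPN and CHEK1, the 3 of the 10 genes that passed the test. WEE1 rose 2.01-fold, CLSPN 1.78-fold and CHEK1 1.40-fold in group mean FPKM, while ATR was at 0.973 and ATRIP at 0.844 times the NC mean, and neither of the latter passed the test. RAD9A (1.45-fold) and TOPBP1 (1.36-fold) rose about as much as CHEK1 without passing it. RAD1 was at 1.26, CDC25A at 1.16 and HUS1 at 0.903 times the NC mean, also not called. Of the 10 genes 3 were called higher and 0 lower (limma, adjusted p under 0.05 over all 11611 genes tested in this line). The same test called 17.8% of all genes in either direction and 10.3% higher. The median log2 fold change, always on the log2(FPKM + 1) scale, which understates changes of low genes, was 0.36 over the 10 genes and 0.00 over all genes tested.

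**Figure D1:**
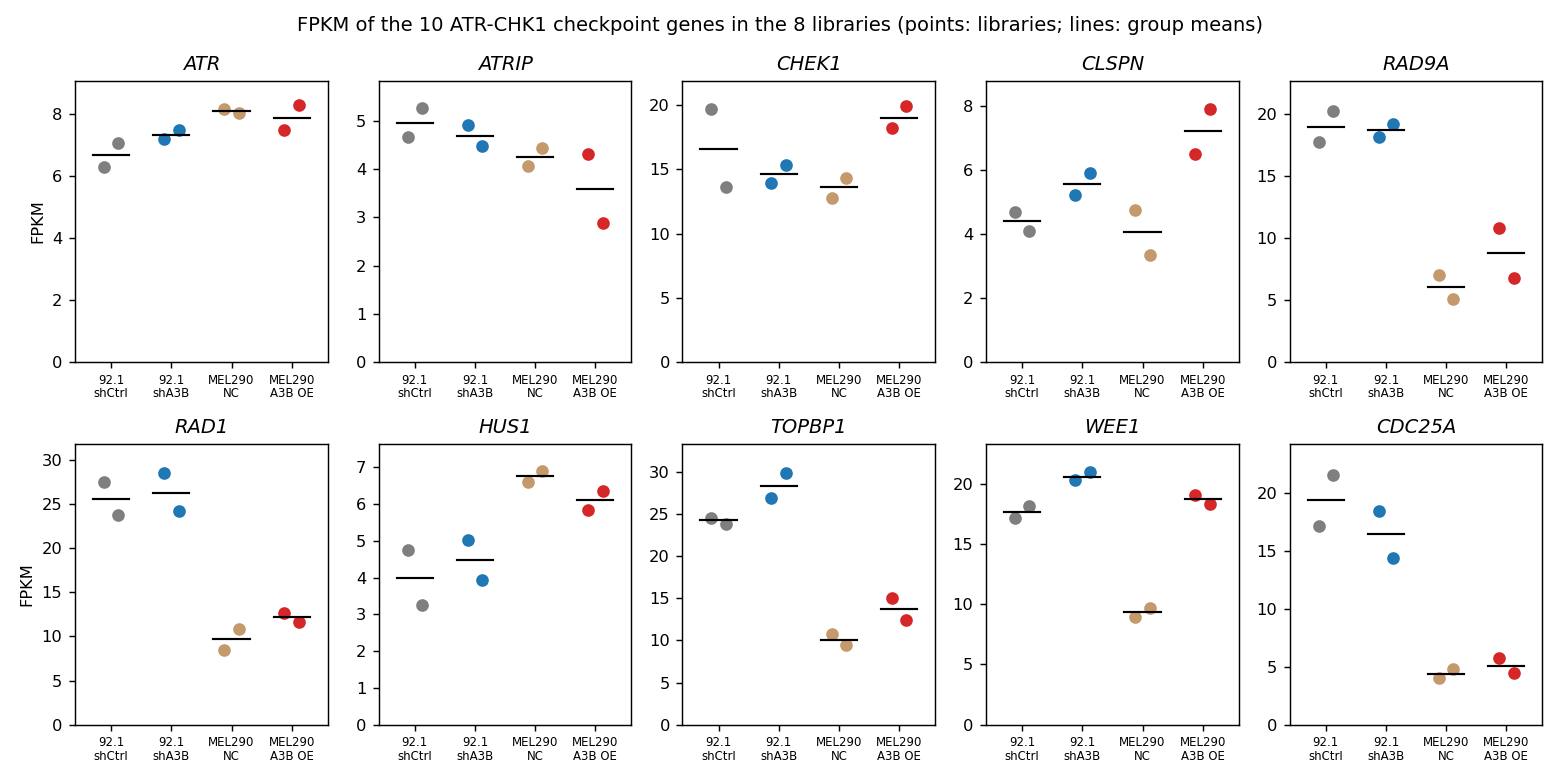
FPKM of each of the 10 checkpoint genes (1 panel a gene, vertical axis from 0) in the 8 libraries, with 1 point per library and a line at the mean of each group of 2. WEE1, CLSPN and CHEK1 lie higher in both A3B OE libraries than in both NC libraries, and CDC25A, RAD9A, RAD1 and TOPBP1 lie higher in the 92.1 libraries than in the MEL290 libraries.

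At the top of the pathway, ATR (chr3:142449007-142578733 of GRCh38, as are all gene positions here, minus strand, 47 exons in its canonical transcript) was at 8.14 and 8.03 FPKM in NC cells and 7.46 and 8.28 FPKM in A3B OE cells. The groups overlapped, and the log2 fold change was -0.04 (SE 0.12, 95% interval -0.32 to 0.25, adjusted p = 0.86, limma). ATRIP (chr3:48446710-48467645, plus strand, 13 exons), the RPA-binding partner without which ATR does not reach stalled forks, was at 4.07 and 4.45 FPKM in NC and 4.31 and 2.88 FPKM in A3B OE cells, so that 1 A3B OE library lay inside the NC range and the other below it. Its log2 fold change was -0.21 (SE 0.18, interval -0.66 to 0.24, adjusted p = 0.48, limma). Exons of ATRIP overlap those of TREX1, an exonuclease gene on the same strand, and how the authors' counting divided shared reads is not stated. For TREX1 itself the log2 fold change was 0.09 (adjusted p = 0.67).

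Of the clamp and its activator no gene was called. RAD1 (chr5:34905260-34918989, minus strand), the subunit that joins the other two in the ring, was at 8.5 and 10.8 FPKM in NC and 12.7 and 11.6 FPKM in A3B OE cells, with no overlap and a log2 fold change of 0.31 (SE 0.14, adjusted p = 0.19, limma). RAD9A (chr11:67317871-67398410, plus strand), whose phosphorylated tail binds TOPBP1, was at 7.0 and 5.09 FPKM in NC and 10.8 and 6.75 FPKM in A3B OE cells, which overlap, and its log2 fold change of 0.45 had an interval from -0.12 to 1.03 (adjusted p = 0.24, limma). Without NC replicate 1 RAD9A was called, at 0.65 (adjusted p = 0.039). HUS1 (chr7:47963288-47979615, minus strand), the remaining clamp subunit, was the only one of the 10 genes with both A3B OE libraries below both NC libraries. It was at 6.61 and 6.89 FPKM in NC and 5.84 and 6.36 FPKM in A3B OE cells, a log2 fold change of -0.13 (SE 0.12, interval -0.42 to 0.17, adjusted p = 0.52, limma). TOPBP1 (chr3:133598175-133662380, minus strand, 28 exons), which carries the domain that activates ATR, was at 10.8 and 9.47 FPKM in NC and 15.1 and 12.4 FPKM in A3B OE cells. These do not overlap, and the log2 fold change of 0.40 (interval 0.07 to 0.73) had an unadjusted p of 0.024 and an adjusted p of 0.096 (limma). RAD9A exons overlap those of PPP1CA, a phosphatase gene on the other strand, and it is not stated whether strand was used in the counting. PPP1CA was far above RAD9A, at 87.2 and 83.2 FPKM in NC and 107 and 89.8 FPKM in A3B OE cells.

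CLSPN and CHEK1 rose together. CLSPN (chr1:35720218-35769978, minus strand, 25 exons) was at 4.74 and 3.36 FPKM in NC and 6.51 and 7.91 FPKM in A3B OE cells, and every A3B OE library lay above every NC library. The log2 fold change was 0.71 (SE 0.18, interval 0.27 to 1.15, adjusted p = 0.044, limma), close to the threshold. Leaving out NC replicate 2 gave an adjusted p of 0.077, and leaving out A3B OE replicates 1 or 2 gave 0.10 or 0.19. CHEK1 (chr11:125625163-125676255, plus strand, 13 exons) was at 12.8 and 14.3 FPKM in NC and 18.2 and 19.9 FPKM in A3B OE cells, again without overlap. Its log2 fold change was 0.46 (SE 0.11, interval 0.20 to 0.73, adjusted p = 0.035, limma). CHEK1 lost its call without NC replicate 1 (adjusted p = 0.10), A3B OE replicate 1 (0.085) or A3B OE replicate 2 (0.15). CHEK1 exons overlap those of STT3A, a subunit gene of the oligosaccharyltransferase on the same strand. STT3A had the opposite sign, with -0.27 on the log2 scale (adjusted p = 0.12).

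WEE1 (chr11:9573670-9593457, plus strand, 11 exons), the kinase that holds CDK1 and CDK2 inactive, had the largest change of the 10 genes. It was at 8.91 and 9.72 FPKM in NC and 19.1 and 18.3 FPKM in A3B OE cells. The groups lay far apart compared with the spread within them, and the log2 fold change was 0.94 (SE 0.10, interval 0.68 to 1.19, adjusted p = 0.0044, limma). WEE1 was called in MEL290 under every alternative run and without each library, with values from 0.88 to 1.00. CDC25A (chr3:48157146-48188417, minus strand, 15 exons), the phosphatase that CHK1 sends for destruction, was at 4.01 and 4.80 FPKM in NC and 5.75 and 4.45 FPKM in A3B OE cells, which overlap, with a log2 fold change of 0.17 (SE 0.16, adjusted p = 0.52, limma). In all, 5 of the 10 genes had both A3B OE libraries above both NC libraries, against 31.5% of all genes, and 1, HUS1, had both below, against 29.7%.

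**Figure D2:**
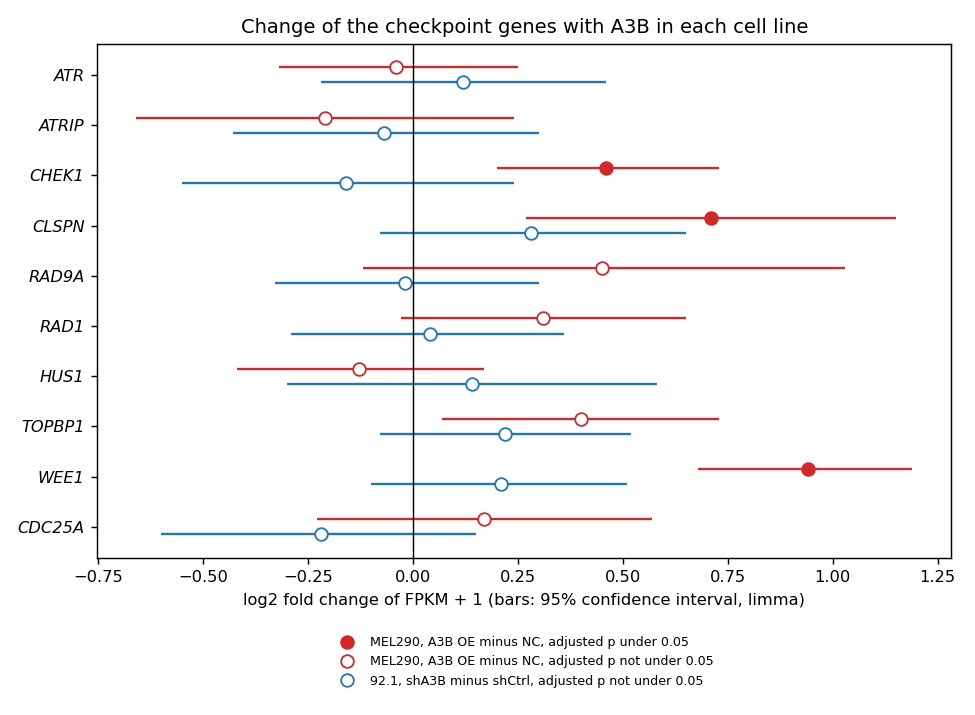
Log2 fold change of FPKM + 1 of the 10 genes with 95% confidence intervals from limma, red for A3B OE minus NC in MEL290 and blue for shA3B minus shCtrl in 92.1, filled where the adjusted p is under 0.05. WEE1 (0.94), CLSPN (0.71) and CHEK1 (0.46) are filled in MEL290, and every 92.1 interval crosses 0.

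With A3B depleted in 92.1 none of the 10 genes passed the test. The log2 fold changes of shA3B minus shCtrl lay between -0.22 for CDC25A and 0.28 for CLSPN, with a median of 0.08. Of the 10 genes 0 were called and 0 had an unadjusted p under 0.05 (limma, adjusted p rounding to 1 for each), in a comparison that called 0.00862% of genes, which is APOBEC3B alone of 11605, and in which 336 genes had an unadjusted p under 0.05. Of the genes called in MEL290, CLSPN had an interval from -0.08 to 0.65 and WEE1 from -0.10 to 0.51, which do not reach their MEL290 values of 0.71 and 0.94 in either sign. That of CHEK1, from -0.55 to 0.24, holds a change of the size seen in MEL290 (0.46) only downwards. The interval of TOPBP1 was -0.08 to 0.52 and that of HUS1 -0.30 to 0.58.

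Per library, WEE1 was at 17.2 and 18.2 FPKM in shCtrl and 20.3 and 21.0 FPKM in shA3B cells, and CLSPN at 4.69 and 4.11 FPKM in shCtrl and 5.21 and 5.92 FPKM in shA3B cells. Both were higher in both A3B-depleted libraries, as were ATR, from 6.27 and 7.07 FPKM to 7.18 and 7.46 FPKM, and TOPBP1, from 24.6 and 23.9 FPKM to 27.0 and 29.9 FPKM. These are 4 genes with all shA3B libraries above all shCtrl libraries, against 15.3% of all genes, and 0 genes had them all below, against 13.3%. CHEK1 was uneven within the control group, at 19.7 and 13.6 FPKM, around 13.9 and 15.3 FPKM in shA3B cells, and its log2 fold change of -0.16 became 0.10 without shCtrl replicate 1. CDC25A overlapped as well, with 17.2 and 21.6 FPKM in shCtrl and 18.5 and 14.4 FPKM in shA3B cells. The clamp genes and ATRIP kept within their control ranges or crossed them, with RAD1 at 27.5 and 23.8 against 28.5 and 24.2 FPKM, RAD9A at 17.7 and 20.2 against 18.1 and 19.2 FPKM, HUS1 at 4.74 and 3.25 against 5.03 and 3.93 FPKM and ATRIP at 4.66 and 5.28 against 4.92 and 4.49 FPKM.

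The changes with A3B in the cell lines were set against each other in a joint fit of the 8 libraries, as (A3B OE minus NC) minus (shA3B minus shCtrl). WEE1 was the 1 gene of the 10 that was called, with a difference of 0.73 on the log2 scale (SE 0.14, interval 0.40 to 1.05, adjusted p = 0.031, limma), where 4.40% of 12697 genes were called. Its call was lost when any 1 of the 8 libraries was left out, with adjusted p from 0.054 to 0.13, while the value stayed between 0.67 and 0.79. CHEK1 differed by 0.62 (interval 0.08 to 1.16, unadjusted p = 0.029, adjusted p = 0.19) and CLSPN by 0.43 (interval -0.12 to 0.97, adjusted p = 0.37). With 0.46 in MEL290 and -0.16 in 92.1, the mean of CHEK1 was higher where A3B was higher in both lines, though it was not called in 92.1. Its difference of 0.62 thus adds changes that go with A3B in both lines. HUS1 had the lowest difference, -0.27 (interval -0.82 to 0.29, adjusted p = 0.60). For the remaining genes the difference lay between -0.15, for ATR and ATRIP, and 0.47 for RAD9A, none called.

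Around the 10 genes, 52 partners of the checkpoint in 7 lists were counted in MEL290. Of 50 tested partners 14 were called higher and 1 lower, 30.0% against the 17.8% of all genes, with a median log2 fold change of 0.23. Leaving out either A3B OE library took the 15 calls to 9. Of the 14, 7 were among the 9 genes of the CDK switch that lies below CHK1 and WEE1, which had a median of 0.89 and 0 genes called lower. CDC25B, a phosphatase that starts mitosis, rose by 1.25 (SE 0.10, adjusted p = 0.0024, limma), the cyclins CCNA2 by 1.06 and CCNB1 by 1.03, and PKMYT1, the second inhibitory kinase of CDK1, by 0.91. CDC25C, CDK2 and CDK1 were called higher too. The G1/S cyclins CCNE1, at -0.42 (adjusted p = 0.11), and CCNE2, at -0.10, were not called, with both A3B OE libraries below both NC libraries.

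**Figure D3:**
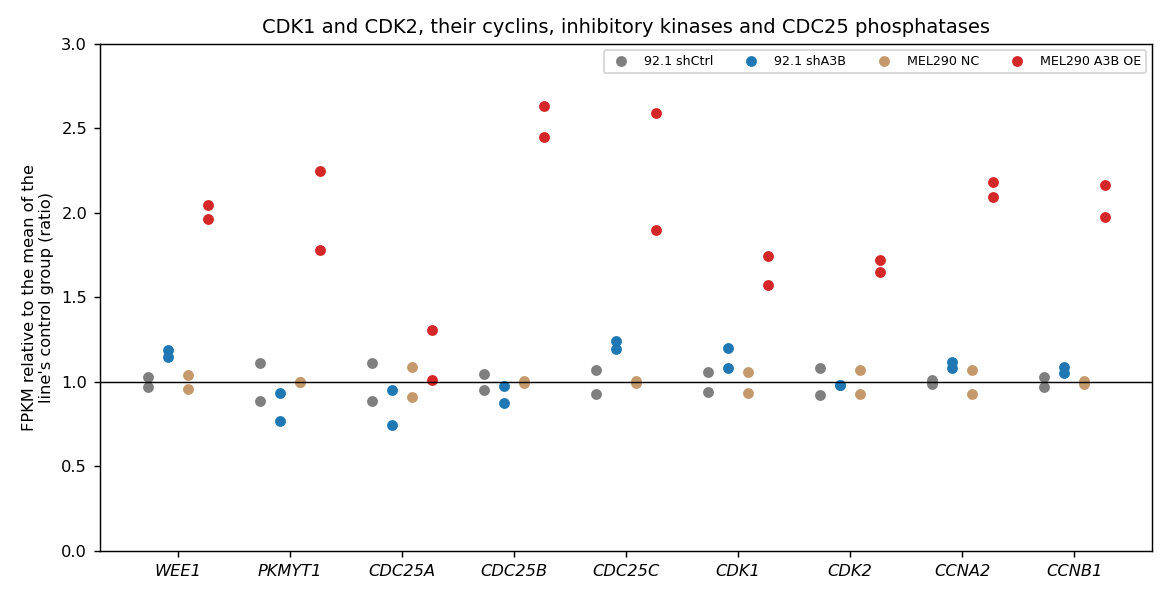
FPKM of WEE1, PKMYT1, the 3 CDC25 genes, CDK1, CDK2, CCNA2 and CCNB1 divided by the mean of the control group of the same line (vertical axis, ratio from 0, 1 point per library, line at 1). All genes but CDC25A have both A3B OE libraries (red) above both NC libraries (tan), and CDC25B reaches the highest ratios.

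The clamp loader and the other activators were counted next. Of the 8 genes of clamp loading and single-stranded DNA binding, RFC3 (0.74, adjusted p = 0.015) and RFC2 (0.64, adjusted p = 0.018, limma), small subunits of the clamp loader, were called higher and 0 were called lower, with a median of 0.39. RAD17, which replaces the large subunit when the checkpoint clamp is loaded, had 0.03, and RPA1 and RPA2 had 0.09 and 0.08. Among 7 other activators and mediators BRCA1 (0.97, adjusted p = 0.011) and TIMELESS (0.56, adjusted p = 0.023) were called higher, a share of 28.6%, with a median of 0.41, and ETAA1, which activates ATR independently of TOPBP1, had 0.11. When A3B OE replicate 1 was left out 0 genes of both lists were called, and when the other A3B OE library was left out 1 mediator was, which leaves these counts dependent on both libraries. RFC4 and RFC5 were just outside the threshold, at 0.40 (adjusted p = 0.061) and 0.39 (adjusted p = 0.058).

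Regulators of the stability of claspin, CHK1 and CDC25A moved both ways, with 2 of 9 called higher and 1 lower, 33.3% beside 17.8% of all genes, and a median of -0.05. PLK1, the mitotic kinase that marks claspin for destruction, rose by 0.94 (adjusted p = 0.0032, limma) and USP28, a deubiquitinase of claspin, by 0.88 (adjusted p = 0.0064). BTRC, the F-box protein that recognises claspin, WEE1 and CDC25A for destruction, fell by 0.89 (SE 0.17, adjusted p = 0.021), from 21.9 and 17.9 FPKM in NC to 12 and 8.65 FPKM in A3B OE cells. The 3 assembly factors of PI3K-like kinases (TELO2, TTI1, TTI2) gave 0 calls (limma, 0 with an unadjusted p under 0.05) and a median of 0.08. In the parallel ATM-CHK2 branch only H2AX, the histone variant phosphorylated at breaks and stalled forks, was called of 7 genes (0.87, adjusted p = 0.0035), a share of 14.3% beside the 17.8% of all genes, with a median of 0.08, and ATM itself had -0.08. Of the 9 E2F and RB1 genes 7 were tested and 0 called (limma, 1 with an unadjusted p under 0.05), with E2F1 at 0.42 (adjusted p = 0.057). The filter on low values removed E2F2, with group means of 0.311 FPKM in NC and 1.07 FPKM in A3B OE cells, and E2F8, with 0.169 and 0.492 FPKM. In this list 1 gene was called with upper quartile scaling, without the filter, with the GC and length trend removed or without NC replicate 2, and 2 were with all 8 libraries in 1 fit.

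**Figure D4:**
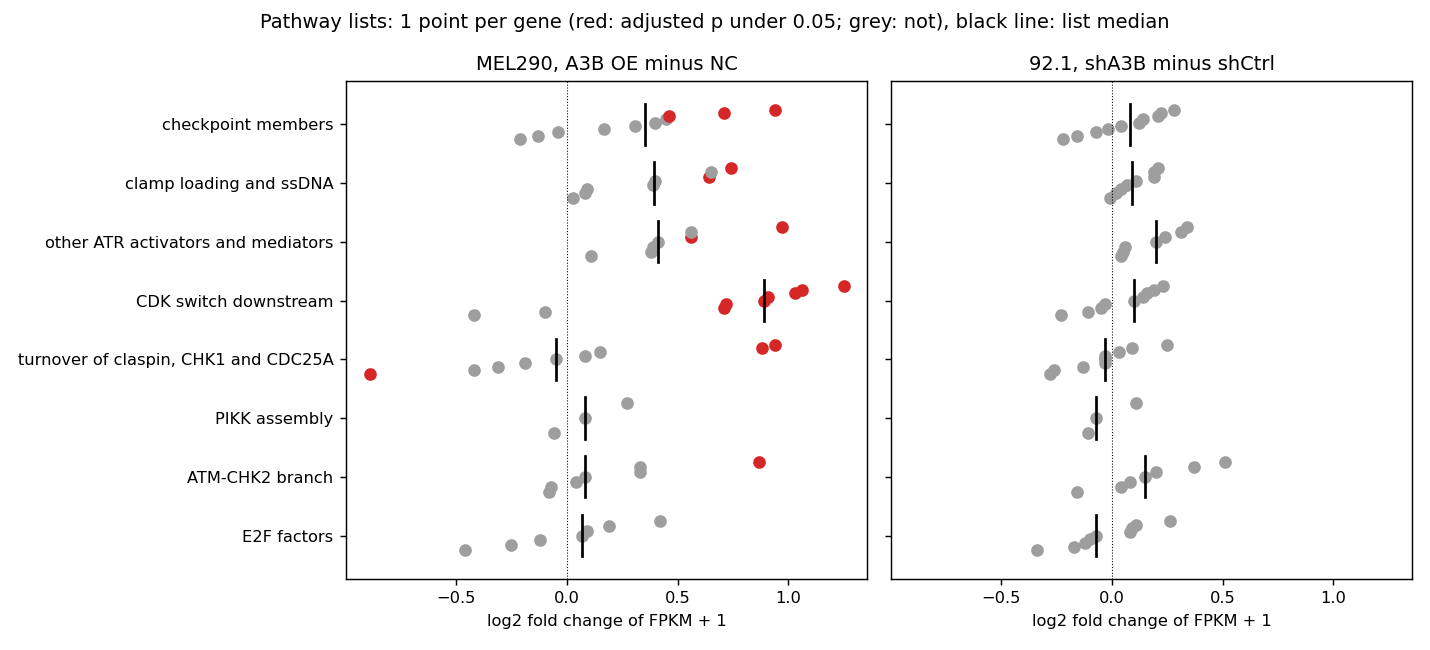
Log2 fold change of FPKM + 1 of each gene of the checkpoint members and of the 7 partner lists (1 point per gene tested, red where the adjusted p is under 0.05, black line at the list median), for MEL290 on the left and 92.1 on the right. The CDK switch list has the highest median in MEL290 (0.89), and no point is red in 92.1.

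In 92.1 none of the 52 partners was called, with 3 at an unadjusted p under 0.05 and a median of 0.06. The difference between the lines was called for 7 of 52 partners, 13.5% against 4.40% of all genes, and these were CDC25B (1.37), PKMYT1 (1.14), PLK1 (1.07), H2AX (1.03), CCNB1 (0.93), CCNA2 (0.92) and CDK2 (0.74). In 92.1 CDC25B (-0.11), PKMYT1 (-0.23), PLK1 (-0.13), H2AX (-0.16) and CDK2 (-0.03) were below 0, while CCNB1 (0.10) and CCNA2 (0.14) were above it. For those below 0 the difference adds changes that go with A3B in both lines. Exons of CDK2 overlap those of PMEL, which was at 3780 to 4590 FPKM in 92.1. The part of PMEL reads in the 92.1 value of CDK2, and so in its difference, was not tested. With each line taken as A3B-high minus A3B-low, the list of H2AX gave 0 calls. Of the 7, 5 belong to the CDK switch, and leaving out single libraries gave between 1 and 5 calls in that list and between 1 and 7 over all partners, with 1 without A3B OE replicate 1. The list of H2AX had 0 calls when any of 6 of the 8 libraries was left out, and that of PLK1 had 0 without A3B OE replicate 1.

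General cell-cycle genes moved with these changes and are given for that reason. Of the S phase genes of a standard cell-cycle list (without CLSPN, which belongs to it) 28 of 41 tested were called higher in MEL290 and 0 lower, with a median of 0.61, and of the G2/M genes 49 of 54, with a median of 0.90. These are shares of 68.3% and 90.7%, beside the 17.8% of all genes called in either direction. The median FPKM of the S phase list was 9.29 and 9.31 in NC and 13.6 and 14.3 in A3B OE libraries, and that of the G2/M list 14.9 and 15.7 against 28.8 and 31.5. WEE1 at 0.94 and CLSPN at 0.71 thus lay near the medians of these lists, CHEK1 at 0.46 below both, and ATR, ATRIP and HUS1 below 0. The S phase count depended on the A3B OE libraries, with 9 genes called without replicate 1 and 15 without replicate 2. In bulk RNA more cells in a cycle phase and more RNA per cell cannot be told apart, and the part of cell-cycle composition in the changes of the checkpoint genes was not tested. In 92.1 the S phase and G2/M medians were 0.09 and 0.11 with 0 calls (limma), and 1 and 6 genes had an unadjusted p under 0.05.

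The control groups of the lines were compared as well. The comparison of NC with shCtrl called 74.9% of 12697 genes, 34.8% higher and 40.1% lower in MEL290, and 6 of the 10 checkpoint genes, 1 higher and 5 lower. CDC25A was lowest in MEL290 relative to 92.1, by a log2 fold change of -1.91 (SE 0.18, adjusted p = 1.8e-05, limma), with group means of 4.40 ± 0.554 FPKM in NC and 19.4 ± 3.11 FPKM in shCtrl (SD, n = 2). RAD9A (-1.51), RAD1 (-1.33), TOPBP1 (-1.18) and WEE1 (-0.86) were lower as well. HUS1 was higher, by 0.65 (SE 0.17, interval 0.26 to 1.04, adjusted p = 0.0081), with 6.75 ± 0.194 FPKM in NC and 4.0 ± 1.05 FPKM in shCtrl (SD, n = 2), although its adjusted p was 0.053 without shCtrl replicate 2. ATR (0.25, adjusted p = 0.083), CHEK1 (-0.26), ATRIP (-0.18) and CLSPN (-0.11) were not called. CHEK1 was called without shCtrl replicate 2 (-0.51, adjusted p = 0.013) and with the GC and length trend removed (-0.52, adjusted p = 0.0075), CLSPN with that trend removed (-0.38, adjusted p = 0.039) and ATR with upper quartile scaling (0.30, adjusted p = 0.045). The 10 genes were called at a share of 60.0%, beside the 74.9% of all genes, and cell line, vector, culture and a possible separate processing of the files of each line cannot be told apart.

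The subunits of the clamp stood in different proportions in the lines. RAD1 over HUS1, as a ratio of FPKM in each library, was 5.80 and 7.30 in shCtrl and 5.66 and 6.16 in shA3B, and 1.29 and 1.57 in NC and 2.17 and 1.83 in A3B OE. RAD9A over HUS1 was between 3.6 and 6.21 in the 92.1 libraries and between 0.739 and 1.85 in the MEL290 libraries. All ratios of this paragraph were chosen after the values were seen and carry no test. WEE1 over CDC25A, the CDK-inhibiting kinase over the activating phosphatase, was 1.00 and 0.845 in shCtrl, 1.10 and 1.45 in shA3B, 2.22 and 2.03 in NC and 3.32 and 4.12 in A3B OE cells, so that no group overlapped another. It was higher with A3B lowered in 92.1 as well as with A3B raised in MEL290. Neither WEE1 nor CDC25A was called in 92.1, and a relation of the ratio to the level of A3B was not tested. CHEK1 over ATR was 1.58 and 1.78 in NC and 2.44 and 2.40 in A3B OE cells, and spanned 1.92 to 3.14 in 92.1. ATRIP over ATR, the obligate pair, was 0.743 and 0.748 in shCtrl, 0.685 and 0.602 in shA3B, 0.5 and 0.554 in NC and 0.578 and 0.348 in A3B OE cells.

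The order of the 10 levels differed between the groups. In shCtrl the highest was RAD1 (25.6 FPKM), followed by TOPBP1 (24.3), CDC25A (19.4), RAD9A (18.9), WEE1 (17.7), CHEK1 (16.6), ATR (6.67), ATRIP (4.97), CLSPN (4.40) and HUS1 (4.0). Only 3 of the 9 steps in that order separated the libraries of neighbours, those from TOPBP1 to CDC25A, from CHEK1 to ATR and from ATR to ATRIP. In shA3B cells TOPBP1 (28.4) and RAD1 (26.3) changed places without separating, and CHEK1 (14.6) again stood clear of ATR (7.32), with 5 of 9 steps separated. In NC cells CHEK1 (13.6) was highest and separated from TOPBP1 (10.1), while RAD1 (9.67) and WEE1 (9.32) did not separate from each other, and CDC25A (4.40), ATRIP (4.26) and CLSPN (4.05) were last, with 4 of 9 steps separated. In A3B OE cells CHEK1 (19.0) and WEE1 (18.7) led together and were separated from TOPBP1 (13.8), and ATRIP (3.6) was last and separated from CDC25A (5.10), with 5 of 9 steps separated. ATR, ATRIP, CLSPN and HUS1 were below the median of tested genes in every group, and the 10 genes ranged from the 16.3rd percentile for ATRIP in A3B OE cells to the 73.6th for TOPBP1 in shA3B cells.

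Summed over the 10 genes, the FPKM was 144 and 141 in shCtrl, 149 and 146 in shA3B, 75.6 and 76.9 in NC and 106 and 98.9 in A3B OE libraries. The sum in A3B OE cells lay between those of NC and 92.1 cells, but single genes differed in this. The A3B OE level of WEE1, 18.7 ± 0.553 FPKM, was above the 17.7 ± 0.708 FPKM of shCtrl and below the 20.6 ± 0.509 FPKM of shA3B (SD, n = 2). The nearest A3B OE and shCtrl libraries were at 18.3 and 18.2 FPKM. CDC25A was at 5.10 ± 0.920 FPKM in A3B OE and 19.4 ± 3.11 FPKM in shCtrl cells. CLSPN, at 7.21 ± 0.991 FPKM, exceeded its level in each of the 92.1 libraries.

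Across the 8 libraries CHEK1 did not follow the other 9 genes closely. Its Pearson correlation on the log2(FPKM + 1) scale was 0.61 with CLSPN, which ranked 253 of 9892 genes, 0.45 with WEE1, 0.14 with HUS1, 0.06 with RAD1, 0.03 with TOPBP1, -0.02 with RAD9A, -0.11 with CDC25A, -0.24 with ATR and -0.52 with ATRIP. Among the 5 genes most like it were FAXDC2 (0.90), GNA13 (0.88), STMP1 (0.86) and FAM210A (0.86). These values come from 8 libraries in 4 groups that differ in depth and line, and describe these libraries without a test.

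Among the partners, CDK2, the kinase of S phase, differed widely between the lines and shares exons with another gene. Other partners overlap exons of a coding gene on the other strand too, among them PKMYT1, CCNA2, CDC25C, PLK1 and ATM. The same holds for RAD17, RFC4, RFC5 and RPA1, and the part of shared reads in all these was not tested. CDK2 was at 401 and 470 FPKM in shCtrl and 427 and 426 FPKM in shA3B, but at 17.1 and 14.9 FPKM in NC and 27.5 and 26.4 FPKM in A3B OE cells. Its exons (chr12:55966781-55972789) overlap those of the melanosome gene PMEL on the other strand, which was at 3780 to 4590 FPKM in the 92.1 libraries and at 0.836 to 1.31 FPKM in the MEL290 libraries, and the part of reads from PMEL in the CDK2 values of 92.1 was not tested.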

How the data were processed

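RNA of 92.1 and MEL290 cells was sequenced in 8 libraries, 2 in each of 4 groups taken from the sample titles. The authors prepared libraries with a kit whose use of strand is not stated, used STAR for the alignment of paired reads on GRCh38 and Cufflinks for FPKM per Ensembl gene, and deposited 1 FPKM value per symbol and library. Tool versions are not given in the sources used here. The methods of the study name an Ensembl release that is older than some symbols in the files, so the annotation used is uncertain. The files of the 92.1 and MEL290 cells have different headers, so the lines may have been processed separately. Replicates of a group differed, with an SD of the log2 difference of 0.244 to 0.273 and a Spearman correlation of 0.985 to 0.988 across genes.

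FPKM is no count, so values were tested as log2(FPKM + 1) in limma 3.58.1 under R 4.3.3, with a mean-variance trend in eBayes. Genes needed 1 FPKM or more in 2 or more libraries of the fit. The p-values were adjusted after Benjamini-Hochberg, with a threshold of 0.05. Each line was fitted alone, and the difference between lines and the comparison of controls used all 8 libraries. For 1 gene, exact permutation of 2 against 2 libraries (two-sided) reaches no p below 0.33. The scripts were tested on simulated data. The 10 genes and all lists were chosen with earlier results of these data known. Named genes are the 10, APOBEC3B, up to 4 called genes of each list by size, and the 5 genes with a mean FPKM of at least 4 most correlated with CHEK1, of which 1 is not reported here. CDC25C, CDK2, CDK1, CCNE1, CCNE2, RAD17, RPA1, RPA2, ETAA1, RFC4, RFC5, ATM, E2F1, the markers and the overlapping genes were named after their values were seen. Cell-cycle lists are those of Seurat 5.3.0. Positions and overlaps come from GENCODE release 44, which holds 19033 of the 19952 symbols. Depth is a rough estimate from the FPKM of genes with 1 transcript, of which 15.7% to 28.6% lay within 5% of the peak, so no counting error is given. Alternatives were limma without the trend, 2 scalings, 2 filters, a pseudocount of 0.1, a GC and length correction, the samples in the fit, the sign convention, the replicate block and leaving out each library.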

Additional observations from a re-analysis of the deposited data

Results flagged for a closer look

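The change of WEE1 with A3B was called as different in the cell lines with all 8 libraries. The difference of its log2 fold changes, A3B OE minus NC in MEL290 less shA3B minus shCtrl in 92.1, was 0.73 (SE 0.14, adjusted p = 0.031, limma over all 8 libraries), from values of 0.94 in MEL290 and 0.21 in 92.1, which both show the changed group higher in 2 of 2 libraries. With each line taken as A3B-high minus A3B-low, the difference was 1.14 (adjusted p = 0.0084). The call of 0.73 was lost when any 1 of the 8 libraries was left out (adjusted p from 0.054 to 0.13) and with the replicate number as a block (0.081). The groups also differ in construct and in cell line.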

How the results depend on the processing

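Of the 10 genes, the 3 called in MEL290 became 1 without a filter on low FPKM, and between 1 and 3 when single libraries were left out, with 1 left when either A3B OE library was omitted. In 92.1 the count was 0 in each alternative, also without each library (0 to 0), and for NC against shCtrl it was 6 without each library, 7 with upper quartile scaling and 8 with the GC and length trend removed. Without shCtrl replicate 2 the 6 were not the same genes, since HUS1 lost its call (adjusted p = 0.053) and CHEK1 gained one (0.013). CHEK1 lost its MEL290 call without the filter (adjusted p = 0.085) and with all 8 libraries in 1 fit (0.11). CLSPN lost it without the trend (0.053), with quantile normalization (0.051) and without the filter (0.14). The cause was not tested.

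The difference between the lines gave 0 calls without each library (0 to 0). With the replicate number as a block it gave 0 calls as well (WEE1 at an adjusted p of 0.081), MEL290 gave 2, since CLSPN reached an adjusted p of 0.074, and 92.1 gave 0 and NC against shCtrl 6. Deviations of libraries with the same number correlated across genes by 0.19 in 92.1 and -0.03 in MEL290. MEL290 thus showed no pairing by number. In 92.1 the correlation was weak but positive, and the block took the calls over all genes from 1 to 37. The main fits did not use the number. Nothing states that libraries were paired, and whether they were was not tested.

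Except for APOBEC3B in the difference between lines, where the alternative redefines the sign of the 92.1 change, signs turned only for values that were not called. With single libraries left out, ATR in MEL290 ranged from -0.10 to 0.03 and ATRIP from -0.44 to 0.02, and the difference between lines of ATRIP from -0.37 to 0.08. In 92.1 removal of the GC and length trend gave ATRIP 0.01, RAD9A 0.06 and RAD1 -0.05, and upper quartile scaling gave RAD9A 0.00. With single 92.1 libraries left out, CHEK1 ranged from -0.41 to 0.10, ATRIP from -0.14 to 0.01, RAD9A from -0.11 to 0.08, RAD1 from -0.08 to 0.15 and HUS1 from -0.08 to 0.36. With A3B-high minus A3B-low in each line the difference became 0.08 for ATR, 0.01 for HUS1, -0.06 for CDC25A and -0.39 for APOBEC3B. For NC against shCtrl the GC and length trend gave ATR -0.12 and ATRIP 0.11, and CLSPN ranged from -0.30 to 0.09 with single libraries left out.

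Over all genes MEL290 gave 2065 calls, 915 without the filter and 809 to 1979 without single libraries. In 92.1 the 1 call became 37 with the replicate block and 0 without the filter, and the 559 calls of the difference became 328 where every library needed 1 FPKM or more, 855 with the GC and length trend removed, 223 with the block and 36 to 286 without single libraries. Without the filter on low FPKM the MEL290 calls were 10 for the S phase list, 32 for G2/M, 4 for the CDK switch, 8 for all partners and 0 for the clamp loading list and for the mediators. For the difference, the partners gave 4 calls with the block and 4 without the filter, the S phase list 1 and 0, and G2/M 16 and 15. The S phase list gave 6 calls in the main fit of the difference and 17 with A3B-high minus A3B-low in each line. No counting error could be given for FPKM, and depth limits RAD9A in NC cells most.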
